A study of Mus musculus with 24 samples.

Results

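The 10 genes described here are 2 receptors of the Notch pathway (*Notch1* and *Notch2*), 2 genes that Notch signalling switches on (*Hes1* and *Hes5*), 3 transcription factors of the SOX family (*Sox2*, *Sox8* and *Sox9*) and 3 of the nuclear factor I family (*Nfia*, *Nfib* and *Nfix*). They were picked by symbol, with earlier results of these data known, and are 10 of the 24411 genes in the expression tables. The study purified astrocytes and microglia from wild-type (WT) mice and from mice with the *SOD1* G93A transgene, a model of familial amyotrophic lateral sclerosis, kept them in serum-free culture, and sequenced polyadenylated RNA with strand information. It asked what the transgene does to glia by itself, at rest and after an inflammatory stimulus. Values of 21 libraries in 7 conditions were used, with 3 libraries per condition.

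Astrocytes came from the cortex of postnatal pups by immunopanning, in which antibody-coated dishes first remove other cells and then hold astrocytes. Quiescent astrocytes, WT or *SOD1* G93A, received phosphate-buffered saline (PBS). Activated astrocytes, WT or *SOD1* G93A, received 3 ng/mL interleukin-1α (IL-1α), 30 ng/mL tumour necrosis factor α (TNFα) and 400 ng/mL C1q, the cytokine mixture of the study. Microglia came from whole brain of postnatal pups by magnetic sorting for the surface protein Cd11b. Quiescent WT microglia received PBS, and WT and *SOD1* G93A microglia of the other groups received 50 ng/mL lipopolysaccharide (LPS), a bacterial wall component. The transgene adds a mutant human *SOD1* gene to the mouse's own copies in all cells of the animal, and the cells were cultured apart from the surrounding tissue. The labels do not say whether replicates are separate cultures or animals, so the spread among them may be technical, and p-values measure differences against that spread.

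Notch receptors are cut after they bind a ligand of the Delta or Jagged kind on a neighbouring cell, and their inner part enters the nucleus, where it joins RBPJ and turns on genes such as *Hes1*, *Hes5* and *Hey1*, whose products are transcriptional repressors. In the developing brain this signal keeps progenitors from becoming neurons, and SOX9 and the nuclear factor I proteins then open the way to the astrocyte fate. In mature glia SOX2, SOX8, SOX9 and the nuclear factor I proteins remain present and bind at many astrocyte genes.

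Levels are given in RPM, which are reads per 1000000 reads on genes, and differences as log2 fold changes of the normalized counts. The shallowest library had 2016139 reads on genes, the deepest 11570122 and the median library 5098168. The WT quiescent astrocytes held both the shallowest and 1 of the deepest astrocyte libraries, with 2016139, 3637657 and 9258718 reads. The WT activated astrocytes had 5047999 to 6768201 reads and the *SOD1* G93A activated astrocytes 2135439 to 3929272, so these groups did not overlap in depth. A count of 0 allows up to 3 reads, and a gene at 3 reads or fewer in every library of a group is treated as at the floor, which covers counting error only. A gene is called when limma gives an adjusted p under 0.05 over all genes tested, and only genes whose normalized counts averaged 10 or more were tested. An exact permutation test of 3 libraries against 3 has 20 arrangements and cannot give a two-sided p under 0.1, so no such p is given.

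Some libraries stood apart from the other libraries of their group. The median gene of WT LPS microglia replicate 1 lay 0.21 (log2) from the mean of the other 2 libraries, and in that library short genes (exons of at most 2823 bases) were shifted by 0.24 and long genes (at least 8243 bases) by -0.22. The distance was 0.20 in *SOD1* G93A LPS microglia replicate 3, where 2.81% of genes lay more than 2-fold away. It was 0.20 in WT quiescent astrocytes replicate 1 and 0.21 in replicate 3, and 0.08 to 0.17 in the other astrocyte libraries. In WT quiescent astrocytes long genes were shifted by -0.11 in replicate 1 and by 0.11 in replicate 3. *Notch1*, *Notch2*, *Nfia* and *Nfib* are long genes in this sense, and *Sox2*, *Hes1* and *Hes5* are short ones. Comparisons below share control libraries, so their values stand side by side and are not independent of each other.

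The labelled cell types were checked on their markers. In the 12 astrocyte libraries, 15 or 16 of 16 astrocyte markers had reads and summed to between 5962 and 8718 RPM. The glutamate transporter *Slc1a3* was the most abundant, at a mean of 2386 RPM in WT quiescent astrocytes, while the connexin *Gjb6* was at the floor in all 4 astrocyte groups. The 16 microglia markers summed to between 216 and 516 RPM in the astrocyte libraries and to between 15411 and 16280 in WT quiescent microglia, where *Csf1r* was the most abundant. In LPS-treated WT microglia they summed to 6173, 5700 and 5696 RPM and in LPS-treated *SOD1* G93A microglia to 6147, 6089 and 7908, below every quiescent library. In the 9 microglia libraries, astrocyte markers summed to between 351 and 956 RPM, with *Glul*, which microglia express too, the most abundant, and *Gjb6* and *Ntsr2* were at the floor.

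Markers of other cells were present to different degrees, and the panning steps are designed to remove microglia, endothelial cells and oligodendrocyte-lineage cells. The 13 markers of the oligodendrocyte lineage summed to 2247, 2195 and 2174 RPM in WT quiescent astrocytes and to 789, 814 and 755 after cytokines. In *SOD1* G93A astrocytes they summed to 2597, 2389 and 2356 at rest and to 756, 752 and 801 after cytokines. *Olig1*, which astrocyte progenitors also express, made up most of this, and *Mog* was at 0 in WT quiescent astrocytes. The 13 neuron markers summed to 1018, 1048 and 828 RPM in WT quiescent astrocytes and to 490, 535 and 537 after cytokines. *Map2*, the most abundant, had 925, 957 and 733 RPM of this at rest and 352, 396 and 403 after cytokines. The fall of the sum was that of *Map2*. The sum of the other neuron markers was higher in each activated WT library than in each quiescent one. In *SOD1* G93A astrocytes the neuron markers summed to 979, 1063 and 1076 at rest and to 470, 471 and 487 after cytokines. *Map2* again made up most of this, at a mean of 952 RPM at rest and 379 after cytokines. In that comparison limma called *Map2* (-1.24, log2), *Gad1* (-1.19) and *Elavl3* (-0.35) as lower. It called *Nefl* (3.17), *Nefm* (2.84), *Tubb3* (1.79) and *Snap25* (1.26) as higher. The 10 endothelial markers summed to 8.20 to 14.7 RPM in quiescent and to 112 to 155 in activated astrocytes, with *Flt1* the most abundant, while the defining genes *Cldn5*, *Ly6c1* and *Tie1* were at 0 in all 4 astrocyte groups. The 10 pericyte and fibroblast markers summed to at most 58.0 RPM in any astrocyte library, with *Lum* or *Pdgfrb* the most abundant. The 10 activation markers summed to 1122 to 2202 RPM in quiescent astrocytes and to 5547 to 7180 in activated ones, where *Lcn2* was the most abundant. The part of any of these cells in the changes below was not tested, and fewer cells of a type and less RNA per cell cannot be told apart in bulk RNA.

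In microglia the same lists were mostly low. The oligodendrocyte-lineage list summed to 1340, 1370 and 1381 RPM in WT quiescent microglia and to 136, 136 and 138 after LPS, with *Cspg4* the most abundant, while *Mog* and *Bmp4* were at 0 at rest. In *SOD1* G93A LPS microglia it summed to 178, 181 and 277. Neuron markers summed to 10.4 to 20.0 RPM over the 9 microglia libraries, endothelial markers to 24.7 to 75.7 and pericyte and fibroblast markers to 5.76 to 22.2. Activation markers summed to 2075 to 2126 RPM in quiescent WT microglia and to 5754 to 8993 after LPS, where *Il1a* was the most abundant.

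**Figure D1:**
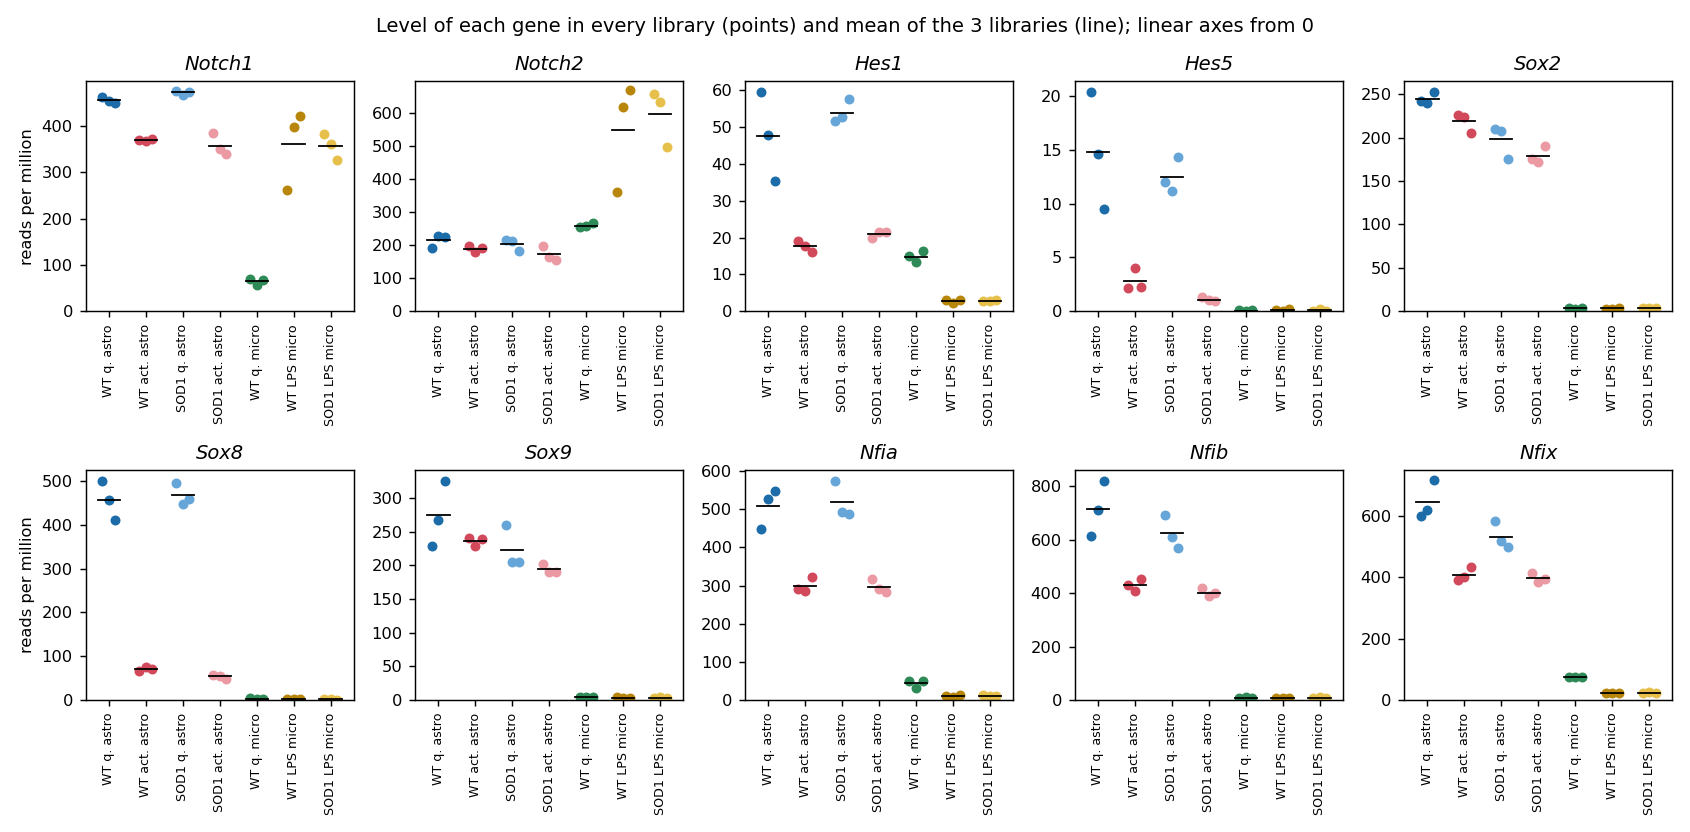
Level of each of the 10 genes (vertical axis, RPM, starting at 0) in each library of the 7 conditions, with a point per library and a line at the mean of 3. *Sox8* sits between 411 and 501 in WT quiescent astrocytes and between 67.0 and 75.5 after cytokines, and *Notch1* between 57.6 and 69.5 in quiescent microglia and between 262 and 421 after LPS.

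Levels of different genes can be compared only per exon length, in RPM per kilobase. In WT quiescent astrocytes *Sox8* led with 146 ± 14.4 (mean and SD, n = 3), ahead of *Sox2* with 119 ± 3.37 and *Nfix* with 87.8 ± 8.55. *Sox9* (66.2 ± 11.7) came next, then *Nfib* (47.8 ± 6.98) and *Nfia* (46.6 ± 4.86), whose library ranges overlapped. *Notch1* (32.0 ± 0.407) was followed by *Hes1* (23.3 ± 5.94) and *Notch2* (19.8 ± 1.92), which overlapped, and *Hes5* was the lowest (10.9 ± 3.98). All other neighbours in this order did not overlap. After cytokines *Sox8* stood seventh in WT astrocytes with 22.9 ± 1.37, and *Sox2* led with 106 ± 5.55. *Sox9* and *Nfix* overlapped there at 57.1 ± 1.49 and 55.7 ± 2.98, as did *Nfib* and *Nfia* at 28.8 ± 1.52 and 27.5 ± 1.88. *Notch1* (26.0 ± 0.193) lay just above *Sox8*, and below it came *Notch2* (17.5 ± 0.833), *Hes1* (8.63 ± 0.743) and *Hes5* (2.06 ± 0.750), none of which overlapped.

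The *SOD1* G93A astrocytes had similar orders, again per exon length. At rest *Sox8* led with 150.0 ± 8.25 RPM per kilobase, *Sox2* followed with 96.1 ± 9.23 and *Hes5* was the lowest with 9.15 ± 1.18. *Nfia* (47.6 ± 4.53) lay above *Nfib* (41.7 ± 4.20) there, with overlapping ranges. After cytokines *Sox2* led with 87.2 ± 4.85, *Sox8* had 17.4 ± 1.50 and overlapped *Notch2* (16.0 ± 1.96), and *Hes5* had 0.807 ± 0.158. Microglia had another order. In WT quiescent microglia *Notch2* led with 24.0 ± 0.546, ahead of *Nfix* with 10.2 ± 0.184 and *Hes1* with 7.29 ± 0.726. *Notch1* (4.58 ± 0.461) and *Nfia* (4.03 ± 0.876) overlapped, *Sox2*, *Sox8*, *Sox9* and *Nfib* lay between 0.635 and 1.80, and *Hes5* was at the floor. After LPS *Notch2* (50.8 ± 15.4) and *Notch1* (25.3 ± 6.02) led in WT microglia without overlap, and *Nfix* came next with only 3.21 ± 0.0416. In *SOD1* G93A LPS microglia *Notch2* had 55.1 ± 7.98, *Notch1* 25.0 ± 2.01 and *Nfix* 3.18 ± 0.273.

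The first comparison asks what the cytokine mixture does to WT astrocytes. 7 of the 10 genes fell and 0 rose, while 19.2% of all 12336 genes tested fell and 19.1% rose. The Notch targets *Hes1* and *Hes5* and the SOX gene *Sox8* fell most, the nuclear factor I genes fell by a lesser amount, and *Sox2*, *Sox9* and *Notch2* were not called. The median change of the 10 genes was -0.66 (log2), beside 0.01 over all genes. At the study's own limits, an adjusted p under 0.001 and a change over 2-fold, 3 of the 10 (*Sox8*, *Hes1* and *Hes5*) fell, against 5.54% of all genes.

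*Notch1*, the main Notch receptor of neural progenitors, had 461, 454 and 450 RPM in quiescent and 370, 367 and 372 in activated WT astrocytes. All 3 activated libraries were below all 3 quiescent libraries, and the spread within each group was small. It fell by 0.28 on the log2 scale (SE 0.08, limma adjusted p = 0.0162). The call was lost without WT quiescent replicate 2 (limma adjusted p = 0.0615), WT activated replicate 1 (0.0682) or WT activated replicate 2 (0.0927). Over the 6 omissions the adjusted p ranged from 0.00387 to 0.0927. *Notch2*, a receptor found on glia and on myeloid cells, had 190, 227 and 225 RPM at rest and 196, 179 and 192 after cytokines. Those groups overlapped, and its change of -0.15 (95% interval -0.37 to 0.07) was not called (limma adjusted p = 0.274), although it was without WT quiescent replicate 1 (-0.25, adjusted p = 0.0338).

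Of the ligands, *Jag1*, which encodes a Jagged protein, had 24.3, 20.6 and 28.6 RPM at rest and 65.8, 73.1 and 76.5 after cytokines in WT astrocytes. The groups did not overlap, and it rose by 1.58 (log2, SE 0.14, limma adjusted p = 5.33e-06). *Dll1*, a Delta ligand, had 92.8, 99.0 and 69.9 RPM at rest and 33.1, 33.2 and 30.6 after cytokines, and fell by 1.39. *Dll3*, a Delta-like protein that does not activate the receptor on a neighbouring cell, had 26.3, 35.2 and 29.7 at rest and 6.74, 7.83 and 6.96 after cytokines, and fell by 2.02. Thus 1 of the 4 tested ligands rose and 2 fell, and *Jag2* was not tested. Among the genes that cut and process the receptor, 4 of 9 tested rose and 0 fell, while 19.1% of all genes rose. These included *Furin*, the protease of the first cut (1.14), and *Psen2*, a subunit of γ-secretase (0.75). Of 17 tested modifiers and endocytic regulators, 2 rose and 5 fell. *Lfng*, which adds sugars to the receptor, had 293, 277 and 255 RPM at rest and 98.3, 98.1 and 102 after cytokines and fell by 1.44, while *Numbl* rose by 1.06.

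*Rbpj* encodes the DNA-binding partner of the cut receptor. It had 114, 130 and 148 RPM in quiescent and 222, 216 and 218 in activated WT astrocytes. Every activated library was above every quiescent library, and it rose by 0.77 (log2, SE 0.11, limma adjusted p = 0.000211). Of the 13 genes of the nuclear complex, 2 rose (*Rbpj* and *Maml3*), and the coactivator *Maml2* fell by 0.88.

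*Hes1*, a repressor that Notch induces, had 59.5, 47.8 and 35.3 RPM in quiescent and 19.0, 17.7 and 16.0 in activated WT astrocytes. The quiescent libraries were spread widely, and all lay above the activated ones. It fell by 1.37 (log2, SE 0.17, limma adjusted p = 6.2e-05). *Hes5*, the Notch target most typical of neural stem cells and radial glia, had 20.3, 14.6 and 9.50 RPM at rest and 2.18, 3.99 and 2.26 after cytokines. It fell by 2.28 (SE 0.31, adjusted p = 0.000158), and again the groups did not overlap. The quiescent replicate with the highest *Hes1* and *Hes5*, replicate 1, is the shallowest, and the replicate with the lowest, replicate 3, is the deepest, and both are among the libraries that stood apart. The part of depth and transcript length in this spread was not tested.

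All 6 tested genes of the HES and HEY target list fell, *Hes1* and *Hes5* among them, while 19.2% of all genes fell. The median of the 6 was -1.18 (log2) beside 0.01 over all genes. *Nrarp*, a small protein that limits Notch signalling and is induced by it, had 69.9, 92.1 and 82.1 RPM at rest and 14.7, 18.0 and 17.4 after cytokines. No activated library came near the quiescent range, and it fell by 2.24 (SE 0.14, limma adjusted p = 3.91e-07). *Hey1*, another repressor of the family, had 65.0, 57.5 and 58.6 RPM at rest and 39.8, 39.2 and 42.8 after cytokines. It fell by 0.54 (SE 0.10). *Hes6* fell by 0.98 and *Id4* by 0.90, and the other 5 genes of the list, *Heyl* among them, had too few reads to be tested.

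**Figure D2:**
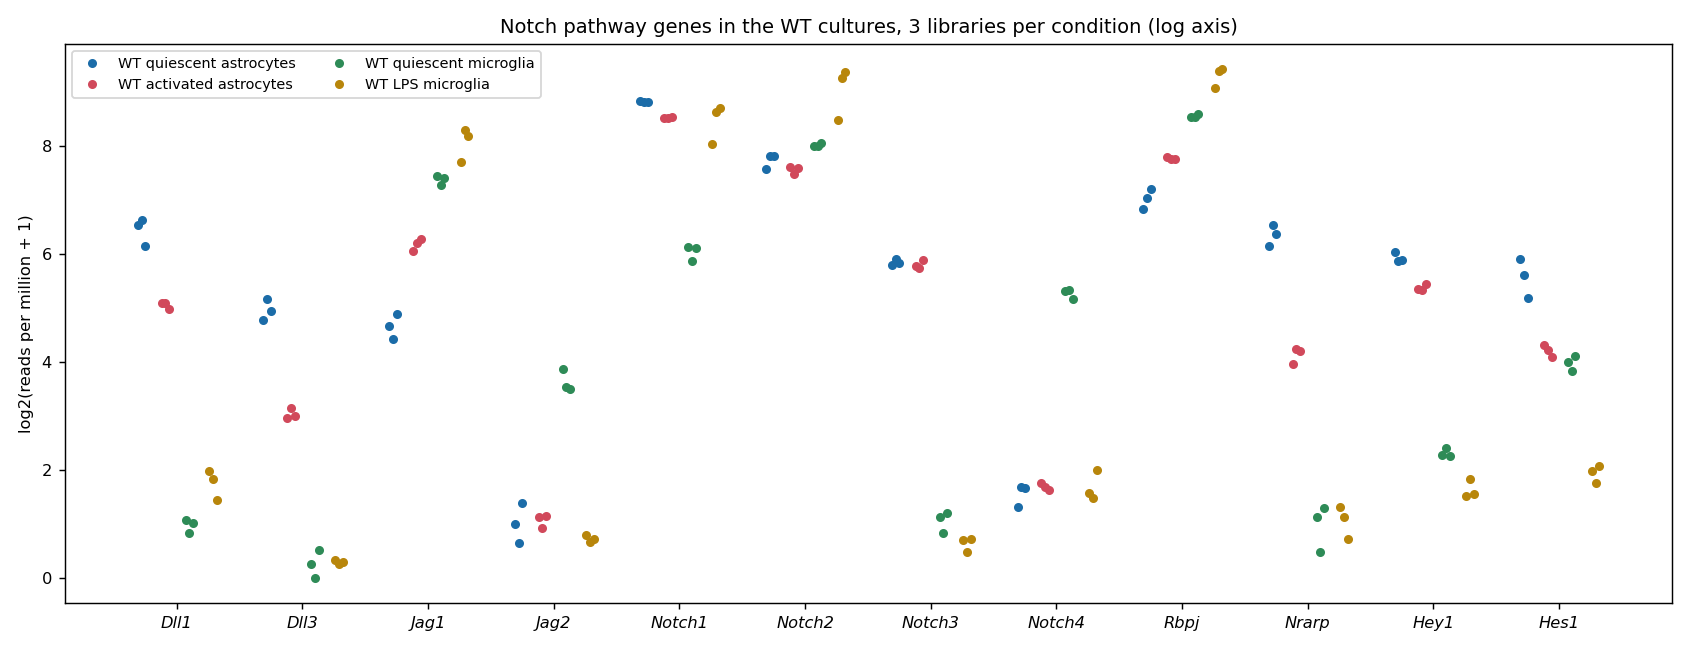
Levels of Notch ligands, receptors, nuclear factors and targets in the 4 WT conditions (log2 of RPM plus 1), with a point per library. In astrocytes *Nrarp*, *Hes1* and *Dll1* are lower and *Jag1* and *Rbpj* higher after cytokines, and in microglia *Notch1* and *Notch2* are higher and *Hes1* lower after LPS.

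*Sox8*, which acts with SOX9 and SOX10 in glia, had 501, 457 and 411 RPM in quiescent and 67.0, 75.5 and 71.7 in activated WT astrocytes. The lowest quiescent library was more than 5-fold above the highest activated one. It fell by 2.65 (log2, SE 0.09, limma adjusted p = 5.3e-09), which is the largest change among the 10 genes in this comparison. *Sox2*, a factor that maintains neural progenitors, had 242, 240 and 253 RPM at rest and 226, 224 and 205 after cytokines. The groups did not overlap, but the change of -0.14 (95% interval -0.32 to 0.04) was not called (limma adjusted p = 0.212). *Sox9*, needed for the switch from making neurons to making astrocytes, had 229, 267 and 326 RPM at rest and 240, 229 and 239 after cytokines. These groups overlapped, and the change of -0.18 (95% interval -0.46 to 0.11) was not called (adjusted p = 0.314). Without WT quiescent replicate 1 it was called (-0.31, adjusted p = 0.0277), and with depth as a term of the fit, an alternative chosen after seeing the data, all 10 genes fell.

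*Nfia*, which NOTCH and SOX9 switch on as astrocyte formation starts, had 447, 528 and 547 RPM in quiescent and 290, 285 and 323 in activated WT astrocytes. *Nfib*, its close relative, had 612, 710 and 821 at rest and 432, 408 and 454 after cytokines. *Nfix* had 599, 619 and 717 at rest and 391, 403 and 434 after cytokines. For each of these genes all activated libraries lay below all quiescent ones. *Nfia* fell by 0.73 (log2, SE 0.11, limma adjusted p = 0.000284). *Nfib* fell by 0.69 (SE 0.12, adjusted p = 0.000949). *Nfix* fell by 0.63 (SE 0.10, adjusted p = 0.000648). The remaining family member, *Nfic*, had 162, 156 and 202 RPM at rest and 133, 132 and 134 after cytokines, and fell by 0.35 (SE 0.11, limma adjusted p = 0.0333). That call was lost without WT activated replicate 1 (-0.34), 2 (-0.33) or 3 (-0.36). All 4 genes of the family therefore fell, by less than 2-fold each.

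Of the 14 SOX genes tested, 9 fell and 1 rose, with a median of -0.44 (log2). The gene that rose, *Sox7*, had 0.992, 1.92 and 2.59 RPM at rest and 117, 99.0 and 99.3 after cytokines, and rose by a fitted 5.79 (SE 0.28). Its value in WT quiescent replicate 1 lies below the 3 reads (1.49 RPM) of the floor there. The gene passed the filter through its activated reads, so the size of the rise is loosely set. *Sox7* is known from endothelial cells. *Sox3* fell by 1.01 and *Sox5* by 1.04. Of 24 other transcription factors of glia and progenitors, 12 fell and 5 rose, with a median of -0.25. *Rfx4* fell by 1.82, while *Stat3*, which carries cytokine signals, rose by 1.50. *Olig2*, a factor of oligodendrocyte and astrocyte progenitors, had 917, 881 and 807 RPM at rest and 346, 354 and 351 after cytokines, and fell by 1.28 (SE 0.08). Of 14 astrocyte genes that lie downstream of SOX9 or the nuclear factor I proteins, 12 fell and 1 rose, with a median of -0.88. *Mmd2* fell by 2.38, *Apcdd1* by 2.43 and the water channel *Aqp4* by 0.81. *Gfap*, the astrocyte filament gene, had 370, 352 and 699 RPM at rest and 969, 940 and 902 after cytokines. Its quiescent replicate 3 was well above the other 2, and it rose by 1.08 (SE 0.22, limma adjusted p = 0.00265).

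**Figure D3:**
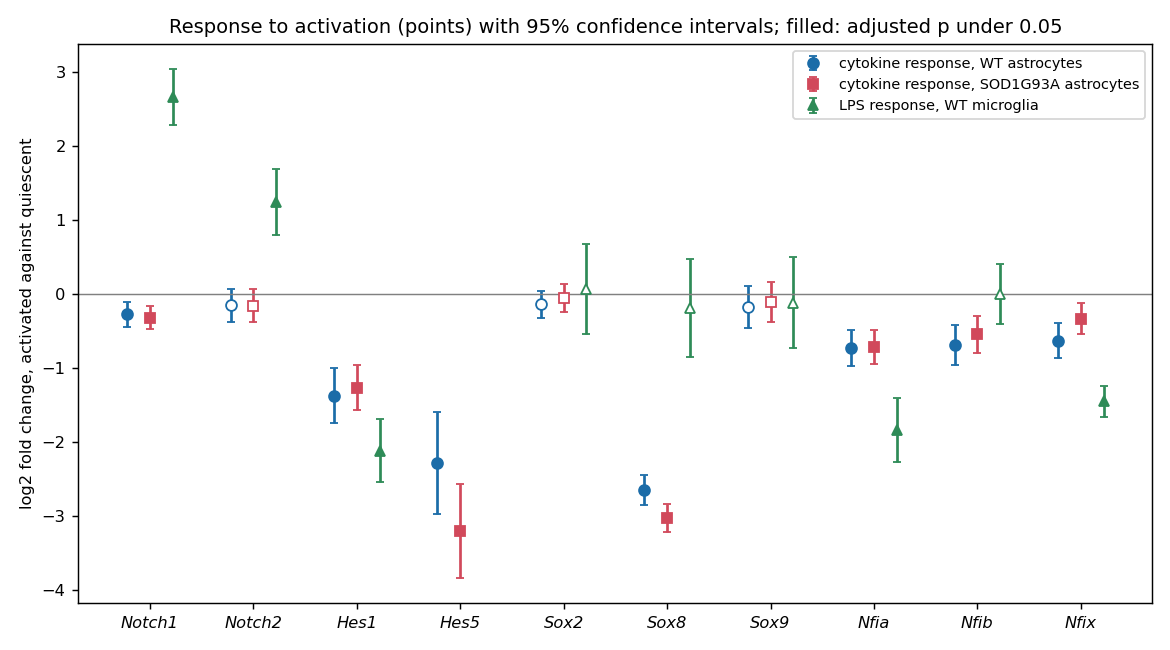
Log2 fold change of each of the 10 genes after cytokines in WT and *SOD1* G93A astrocytes and after LPS in WT microglia, with 95% intervals, and filled points where limma gives an adjusted p under 0.05. *Sox8* lies at -2.65 in WT and -3.02 in *SOD1* G93A astrocytes, *Notch1* lies at 2.65 in microglia, and *Hes5* is left out for microglia because it was at the floor there.

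The same treatment was compared in *SOD1* G93A astrocytes, in a fit of all 12 astrocyte libraries. 7 of the 10 genes fell and 0 rose, while 21.5% of 12269 genes fell and 21.9% rose, and the median of the 10 was -0.44 (log2) beside 0.00 over all genes. *Hes5* had 11.97, 11.2 and 14.3 RPM at rest and 1.34, 1.02 and 0.937 after cytokines, which are 5, 4 and 2 reads. Those few reads were far below the quiescent range, and the fitted fall was 3.20 (SE 0.30, limma adjusted p = 1.1e-07). *Hes5* passed the filter through its reads in the other groups, so only the direction of this fall is read. *Sox8* had 497, 447 and 460 RPM at rest and 58.3, 55.5 and 49.2 after cytokines. It fell by 3.02 (SE 0.09, adjusted p = 1.36e-13) with no overlap. *Hes1* had 51.4, 52.7 and 57.4 at rest and 19.9, 21.6 and 21.5 after cytokines. Its libraries were tight in both groups, and it fell by 1.26 (SE 0.14, adjusted p = 1.28e-06).

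In the same *SOD1* G93A astrocytes, *Notch1* had 476, 467 and 474 RPM at rest and 384, 349 and 339 after cytokines. The groups did not overlap, and it fell by 0.32 (log2, SE 0.08, limma adjusted p = 0.0024). *Nfia* had 575, 492 and 487 at rest and 317, 291 and 282 after cytokines, and fell by 0.72 (SE 0.11). *Nfib* had 692, 609 and 569 at rest and 418, 388 and 400 after cytokines, and fell by 0.55 (SE 0.12). *Nfix* had 583, 518 and 498 at rest and 415, 385 and 395 after cytokines. All of its activated libraries were below the quiescent ones, and it fell by 0.33 (SE 0.10, limma adjusted p = 0.0132), a call lost without *SOD1* G93A quiescent replicate 1 (-0.25, adjusted p = 0.0622) or activated replicate 2 (-0.31, adjusted p = 0.0522), within a range of 0.00307 to 0.0622 over the 12 omissions. *Notch2* (-0.16, 95% interval -0.38 to 0.07), *Sox9* (-0.11, -0.38 to 0.16) and *Sox2* (-0.05, -0.25 to 0.14) were not called. The HES and HEY list again had 6 of 6 tested genes that fell, *Hes1* and *Hes5* among them, with *Nrarp* at -1.83, while 21.5% of all genes fell. *Jag1* rose by 1.41, *Rbpj* rose by 0.87 and *Dll1* fell by 1.71. Of the 14 SOX genes tested, 8 fell and 1 (*Sox7*) rose, and of the 14 genes downstream of SOX9 or the nuclear factor I proteins, 11 fell and 1 rose. Scaling by RPM, chosen after seeing the data, moved the share of called genes that rose from 50.5% to 40.3% and left the 7 calls in place. Depth as a term of the fit, also chosen after seeing the data, left them in place too, with *Nfix* at -0.20 (limma adjusted p = 0.0474), and gave 0.09 for *Sox9*, still not called.

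Whether the genotypes differ in this response was tested as an interaction. 0 of the 10 genes were called by limma, against 0.277% of all genes, which is 34 of 12269, while 1018 genes had an unadjusted p under 0.05. DESeq2 called 64 genes and edgeR 33, with 0 of the 10 in either. The difference of the responses was -0.37 for *Sox8* (95% interval -0.64 to -0.10, adjusted p = 0.414) and -0.92 for *Hes5* (-1.81 to -0.03, adjusted p = 0.58). It was 0.30 for *Nfix* (-0.00 to 0.60), and the other 7 lay between -0.04 and 0.15. The *Hes5* value rests on 5, 4 and 2 reads in *SOD1* G93A activated astrocytes, so its size cannot be read. *Dll3* had the largest value of the Notch lists, with a difference of -1.11 (-1.71 to -0.51) that was not called (adjusted p = 0.164). With depth as a term of the fit, chosen after seeing the data, 1080 genes were called, among them *Nfib* (0.41) and *Nfix* (0.50). Leaving out WT quiescent replicate 1 gave 68 genes and leaving out replicate 2 gave 13, with 0 of the 10 in each.

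Between genotypes at rest, limma called 0 of the 10 genes, against 0.057% of all genes, which is 7 of 12271, while 1068 had an unadjusted p under 0.05. DESeq2 called 55 genes and edgeR 7, with 0 of the 10 in either. The median of the 10 was -0.15 (log2) beside 0.00 over all genes. *Sox2* had 242, 240 and 253 RPM in WT and 210, 208 and 176 in *SOD1* G93A quiescent astrocytes. The groups did not overlap, yet the difference of -0.33 (95% interval -0.57 to -0.10) was not called (limma adjusted p = 0.437). *Nfix*, at 599, 619 and 717 against 583, 518 and 498 RPM, also did not overlap and differed by -0.30 (-0.56 to -0.03). *Sox9*, at 229, 267 and 326 against 260, 204 and 204, overlapped and differed by -0.31 (-0.66 to 0.03). Differences were 0.02 for *Sox8* (-0.22 to 0.25), 0.03 for *Notch1* (-0.17 to 0.23), 0.19 for *Hes1* (-0.18 to 0.55) and -0.21 for *Hes5* (-0.76 to 0.35). *Nfib* differed by -0.21 (-0.53 to 0.10), *Notch2* by -0.09 (-0.35 to 0.16) and *Nfia* by 0.01 (-0.27 to 0.28).

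Of the other Notch, SOX, nuclear factor I, transcription factor and downstream lists, 0 genes were called between genotypes at rest by limma. Of the marker lists, 1 gene was called, *Gpr17* of the oligodendrocyte lineage, which had 52.6, 43.4 and 52.6 RPM in WT and 16.7, 14.3 and 14.3 in *SOD1* G93A quiescent astrocytes and differed by -1.72 (log2, SE 0.14, limma adjusted p = 0.00333). That call was lost with limma without a trend, with the replicate block and at the study's limits. *Sox10* had 29.8, 28.9 and 45.1 RPM in WT and 18.3, 18.2 and 17.6 in *SOD1* G93A quiescent astrocytes, without overlap. Its difference of -0.92 (95% interval -1.34 to -0.51) was not called (limma adjusted p = 0.183), nor was that of *Gfap*, at -1.19 (-1.71 to -0.67). Depth as a term of the fit, chosen after seeing the data, changed these calls. With it 2359 genes were called and 5 of the 10, with *Hes1* higher (0.32) and *Nfib* (-0.33), *Nfix* (-0.38), *Sox2* (-0.39) and *Sox9* (-0.45) lower in *SOD1* G93A astrocytes. Leaving out single libraries gave 1 to 6 genes, the fewest without WT quiescent replicate 2, and 0 of the 10 each time.

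Between genotypes after cytokines, 3 of 9 tested genes were lower in *SOD1* G93A astrocytes and 0 higher, while 2.66% of 12098 genes were lower and 4.6% higher, and *Hes5* had too few reads to be tested. All 3 are SOX genes, and the median of the 9 was -0.06 (log2) beside 0.00 over all genes. *Sox8* had 67.0, 75.5 and 71.7 RPM in WT and 58.3, 55.5 and 49.2 in *SOD1* G93A activated astrocytes. The groups did not overlap, and it differed by -0.35 (SE 0.09, limma adjusted p = 0.0165). *Sox2* had 226, 224 and 205 in WT and 175, 172 and 191 in *SOD1* G93A. It differed by -0.24 (SE 0.07, adjusted p = 0.0262) and did not overlap. *Sox9* had 240, 229 and 239 in WT and 202, 189 and 190 in *SOD1* G93A. It differed by -0.24 (SE 0.06, adjusted p = 0.0183), again without overlap.

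These 3 calls between genotypes after cytokines were lost with limma without a trend, at the study's limits and with depth as a term of the fit, a setting chosen after seeing the data. With that term the difference was -0.38 for *Sox2*, -0.25 for *Sox9* and -0.13 for *Sox8*, with larger standard errors (0.11, 0.11 and 0.14), so the difference of *Sox8* shrank and those of *Sox2* and *Sox9* did not. The groups do not overlap in depth. Scaling by RPM, also chosen after seeing the data, kept the 3 calls and moved the share of called genes that were higher from 63.4% to 45.7%. Leaving out WT activated replicate 1 ended the calls of *Sox2* (adjusted p = 0.165) and *Sox9* (0.108). Leaving out WT activated replicate 2 ended those of *Sox2* (0.131) and *Sox8* (0.115), and replicate 3 those of *Sox8* (0.0689) and *Sox9* (0.0794). Leaving out *SOD1* G93A activated replicate 2 ended those of *Sox2* (0.108) and *Sox9* (0.0693), and replicate 3 that of *Sox8* (0.0589). Over the 6 omissions the adjusted p of *Sox8* was lowest without *SOD1* G93A activated replicate 1 (0.00947), as was that of *Sox9* (0.00951), and that of *Sox2* was lowest without *SOD1* G93A activated replicate 3 (0.0116).

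Other members of the set did not differ by a called amount after cytokines. *Hes1* differed by 0.30 (95% interval 0.01 to 0.58, limma adjusted p = 0.221) and *Notch2* by -0.09 (-0.25 to 0.07). *Nfib* (-0.06, -0.19 to 0.07), *Nfia* (0.03, -0.11 to 0.17), *Nfix* (0.00, -0.13 to 0.13) and *Notch1* (-0.01, -0.13 to 0.12) had narrow intervals around 0. Among the wider SOX list, 4 of 14 tested genes were lower and 1 higher in *SOD1* G93A astrocytes. *Sox10* had 26.7, 23.8 and 22.3 RPM in WT and 14.2, 11.2 and 12.2 in *SOD1* G93A activated astrocytes, and differed by -0.90 (SE 0.15, limma adjusted p = 0.000423), a call lost with depth as a term of the fit. *Sox3* was the higher gene (0.38, SE 0.10), with 0.05 once depth was a term. Of 4 tested ligands, *Jag1* had 65.8, 73.1 and 76.5 RPM in WT and 92.4, 102 and 89.9 in *SOD1* G93A, with no overlap, and was higher by 0.44 (SE 0.08, adjusted p = 0.00169). *Dll3*, at 6.74, 7.83 and 6.96 against 3.22, 3.31 and 1.87, was lower by a log2 difference of -1.28 (SE 0.29, limma adjusted p = 0.00819), or -0.58 with depth as a term, where it was not called. Of 13 tested genes downstream of SOX9 or the nuclear factor I proteins, 4 were higher and 1, *Gfap*, was lower (-0.33).

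Markers of several cell types also differed between genotypes after cytokines. Of 10 tested neuron markers 4 were lower in *SOD1* G93A astrocytes and 0 higher, and of 9 tested oligodendrocyte-lineage markers 2 were lower (*Sox10* and *Pdgfra*) and 1, *Mbp*, was higher. *Dcx*, a gene of young neurons, had 25.0, 20.7 and 19.7 RPM in WT and 10.5, 9.67 and 8.43 in *SOD1* G93A activated astrocytes. Without overlap of the groups, it differed by -1.13 (log2, SE 0.16, limma adjusted p = 9.01e-05). *Pdgfra*, a receptor of oligodendrocyte progenitors, had 82.8, 81.4 and 74.1 in WT and 57.0, 52.4 and 46.8 in *SOD1* G93A, without overlap, and differed by -0.57 (SE 0.09, limma adjusted p = 0.000216). Both calls were lost with depth as a term of the fit. The other neuron markers were *Stmn2* (-1.07), *Gad1* (-0.97) and *Nefm* (-0.59), and *Mbp* differed by 0.71, and each of these 4 calls was lost without WT activated replicate 1 and without at least 1 other library. Of 14 tested astrocyte markers 7 were higher and 1 lower, and of 9 tested activation markers 4 were lower. The endothelial marker *Flt1* (-0.30) and the fibroblast marker *Dcn* (-1.07) were lower as well, the only lower genes among 1 tested endothelial and 4 tested pericyte and fibroblast markers. Both calls were lost with depth as a term, that of *Flt1* also without WT activated replicate 2 or 3, and that of *Dcn* without WT activated replicate 1 or 2. The part of these cells in the SOX differences was not tested.

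The next comparison sets quiescent WT microglia against quiescent WT astrocytes. Age of the pups, brain region, isolation and medium also differ between these cultures, so none of them can be told apart from cell type. All 10 genes were called. *Notch2* was higher in microglia, against 38.5% of 12064 genes that were higher, and 9 of the 10 were lower, against 39.9% that were. Among the lower genes, *Hes5* was at the floor in microglia and passed the filter through its astrocyte reads, so only a bound is read for it. *Notch2* had 255, 256 and 266 RPM in microglia, all above the 190, 227 and 225 of astrocytes. The log2 difference was 0.86 (SE 0.11, limma adjusted p = 2.65e-05), and 0.28 when scaled by RPM, a scaling chosen after seeing the data that shifts the median of all genes by -0.60 in this comparison. It moves the share of called genes that were higher from 49.1% to 29.5% and keeps all 10 calls. At the study's limits *Notch2* was not called, since it differed by less than 2-fold. *Notch1* had 69.5, 57.6 and 68.4 RPM in microglia against 461, 454 and 450 in astrocytes. It was lower by a log2 difference of -2.22 (SE 0.09, adjusted p = 5.2e-09).

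*Sox8* had 4.13, 3.14 and 3.03 RPM in microglia, far below every astrocyte library, and a log2 difference of -6.41 (SE 0.13, limma adjusted p = 8.76e-11). *Sox2* had 4.04, 2.74 and 4.32 RPM in microglia, and *Sox9* had 4.23, 3.92 and 4.90. *Nfib* had 9.65, 10.2 and 8.64 there. These low values stood at 0.752% of the astrocyte level for *Sox8*, 1.51% for *Sox2*, 1.59% for *Sox9* and 1.33% for *Nfib*, while the median of the 16 astrocyte markers was 1.89%. *Nfia* had 49.6, 32.9 and 49.3 RPM in microglia, 8.66% of the astrocyte level, and *Nfix* had 76.4, 73.7 and 75.4, or 11.7%. *Hes1*, with 15.0, 13.3 and 16.3, stood at 31.2% and differed by -1.06 (SE 0.17, adjusted p = 0.000195). *Hes5* had 1, 0 and 1 reads in quiescent microglia, at the floor, so it was at least 8.08-fold lower than in any quiescent astrocyte library. The median of the 10 differences was -4.13 (log2) by the fitted values and -2.99 with *Hes5* at that bound, beside -0.04 over all genes.

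Ligands and receptors were divided between the cell types. *Jag1* had 175, 155 and 169 RPM in microglia and was higher than in astrocytes by 3.34 (log2, SE 0.14). *Jag2* was higher by a fitted 3.81, but it had too few reads to be tested among WT astrocytes, so only the direction is read. *Dll1* had 1.08, 0.784 and 1.01 in microglia and was lower (-5.69), and *Dll3* was at the floor in microglia and at least 22.3-fold lower. *Notch4*, with 38.9, 39.6 and 35.2 RPM in microglia and 1.49, 2.20 and 2.16 in astrocytes, was higher by 4.71. *Notch3*, with 1.18, 0.784 and 1.30 against 54.6, 59.4 and 56.4, was lower (-4.94). *Rbpj* had 372, 375 and 388 RPM in microglia and was higher by 2.12 (SE 0.12). Of the 10 tested processing genes, 9 were higher in microglia, *Furin* by 3.83, and all 6 tested genes of the HES and HEY list were lower, *Hey1* at -3.29 and *Nrarp* at -5.66. Over all genes 38.5% were higher and 39.9% lower. *Nfic* was the exception in its family, with 454, 482 and 453 RPM in microglia and a difference of 2.01 (SE 0.13). All 13 tested SOX genes were lower in microglia.

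LPS changed the genes of WT microglia in both directions. Of the 9 genes tested, *Sox2*, *Sox8*, *Sox9* and *Nfib* stood in quiescent microglia at a lower share of the astrocyte level than the median astrocyte marker, so a response of microglia cannot be read for them. Of the other 5, 2 rose, against 28.6% of 10866 genes, and 3 fell, against 28.3%. Both receptors rose, while *Hes1*, *Nfia* and *Nfix* fell. *Hes5* had 1, 0 and 1 reads after LPS as well and was not tested. Of the 16 microglia markers, 13 fell and 1 rose, with a median of -1.44 (log2).

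*Notch1* had 69.5, 57.6 and 68.4 RPM in quiescent and 262, 397 and 421 in LPS-treated WT microglia. All LPS libraries were far above all quiescent ones, and replicate 1, the library that stood apart, was the lowest of the LPS group. It rose by 2.65 (log2, SE 0.17, limma adjusted p = 3.31e-07). *Notch2* had 255, 256 and 266 at rest and 359, 616 and 669 after LPS. Replicate 1 was again the lowest LPS library and still above all quiescent ones, and it rose by 1.24 (SE 0.20, adjusted p = 0.000377). Without WT LPS replicate 1 the changes were 2.88 for *Notch1* and 1.54 for *Notch2*. *Hes1* had 15.0, 13.3 and 16.3 at rest and 2.96, 2.35 and 3.21 after LPS. The groups were far apart, and it fell by 2.12 (SE 0.19, adjusted p = 4.98e-06).

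*Nfia* had 49.6, 32.9 and 49.3 RPM in quiescent and 11.5, 7.85 and 12.2 in LPS-treated WT microglia. The groups did not overlap, and it fell by 1.83 (log2, SE 0.19, limma adjusted p = 1.69e-05). *Nfix* had 76.4, 73.7 and 75.4 at rest and 23.6, 23.9 and 23.3 after LPS, and fell by 1.45 (SE 0.09, adjusted p = 3.69e-07). *Nfib* had 9.65, 10.2 and 8.64 at rest and 9.36, 6.47 and 8.99 after LPS. These groups overlapped, and its change of 0.00 (95% interval -0.41 to 0.41) was not called (limma adjusted p = 0.995). *Nfic* had 454, 482 and 453 at rest and 143, 169 and 156 after LPS, and fell by 1.35 (SE 0.09). *Sox2* (0.07, -0.53 to 0.68), *Sox8* (-0.19, -0.86 to 0.47) and *Sox9* (-0.12, -0.73 to 0.50) had few reads, overlapped between the groups and were not called. The 5 calls were the same under each of the 19 alternatives. Scaling by RPM, chosen after seeing the data, shifted the median of all genes by -0.21 and moved the share of called genes that rose from 50.3% to 33.6%.

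Around the receptors, *Rbpj* had 372, 375 and 388 RPM in quiescent and 540, 679 and 689 in LPS-treated WT microglia and rose by 0.96 (log2, SE 0.11, limma adjusted p = 2.92e-05). *Jag1* had 175, 155 and 169 at rest and 208, 314 and 291 after LPS and rose by 0.90 (SE 0.15). *Jag2* had 13.7, 10.6 and 10.4 at rest and 0.739, 0.588 and 0.642 after LPS, a fitted fall of 3.62 (SE 0.26). It passed the filter through its quiescent reads, and 0.588 and 0.642 RPM are 3 reads, so only the direction is read. *Notch4* had 38.9, 39.6 and 35.2 at rest and 1.97, 1.77 and 3.00 after LPS, with no overlap, and fell by 3.80 (SE 0.20), so 2 of the 3 tested receptors rose and 1 fell. Of the 10 processing genes, 2 fell, among them *Adam10*, the protease of the second cut, by 1.70. Of 16 tested modifiers, 1 rose (*Dtx2*, 2.53) and 8 fell, among them *Lfng* by 2.32 and *Mfng* by 1.96. Of the 13 nuclear complex genes, 4 rose and 2 fell, *Maml3* by 1.85. Of the HES and HEY list only 3 genes could be tested, and *Hes1* was the 1 that fell. *Hey1* had 3.84, 4.31 and 3.75 at rest and 1.85, 2.55 and 1.93 after LPS, a change of -0.67 (95% interval -1.27 to -0.06) that was not called (limma adjusted p = 0.0578).

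Between LPS-treated *SOD1* G93A and WT microglia, limma called 0 of 9 tested genes, against 0.00936% of all genes, which is 1 of 10679, while 930 had an unadjusted p under 0.05. DESeq2 called 8 genes and edgeR 1, with 0 of the 9 in either. *Notch1* had 382, 361 and 325 RPM in *SOD1* G93A and 262, 397 and 421 in WT LPS microglia. The groups overlapped, and the difference was 0.02 (log2, 95% interval -0.41 to 0.45, adjusted p = 0.985). *Notch2* had 655, 632 and 496 in *SOD1* G93A and 359, 616 and 669 in WT. It overlapped too and differed by 0.16 (-0.38 to 0.71). *Hes1* had 2.87, 2.85 and 2.97 in *SOD1* G93A microglia and differed by 0.04 (-0.54 to 0.62). *Nfia*, with 12.2, 11.6 and 10.6, differed by 0.15 (-0.28 to 0.59), and *Nfix*, with 22.1, 25.7 and 22.3, by -0.01 (-0.29 to 0.26).

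The 4 other tested genes in this comparison of LPS-treated microglia are those with a low share of the astrocyte level, so a difference between microglia cannot be read for them. *Nfib* had 7.44, 11.2 and 6.43 RPM in *SOD1* G93A and differed by -0.00 (log2, 95% interval -0.56 to 0.56). *Sox2* had 4.06, 4.41 and 3.71 and differed by 0.29 (-0.27 to 0.85). *Sox9* had 3.38, 4.41 and 2.72 and differed by 0.01 (-0.70 to 0.72). *Sox8* had 2.54, 3.37 and 0.989, the last in the replicate that stood apart, and differed by -0.28 (-1.32 to 0.77). *Hes5* had 0, 3 and 0 reads in *SOD1* G93A LPS microglia, so both groups were at the floor and no fold is given. With WT LPS replicate 1 and *SOD1* G93A LPS replicate 3 both left out, chosen after seeing the data, 304 genes were called and 0 of the 9. Leaving out single libraries gave 0 to 2 genes, with 0 at 4 of the 6 omissions and 2 without WT LPS replicate 1 or *SOD1* G93A LPS replicate 3.

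The responses of WT microglia to LPS and of WT astrocytes to cytokines were also set against each other in a joint fit of 12 libraries, with the limit that the stimuli differ, so stimulus and cell type cannot be told apart. *Hes5* had 0 or 1 reads in each WT microglia library, so no response can be read there. *Sox2*, *Sox8*, *Sox9* and *Nfib* are left out as well, for their low share of the astrocyte level. Of the other 5 genes, 2 changed more upward in microglia, against 20.1% of 12334 genes, and 3 more downward, against 20.9%. *Notch1* differed most of these 5, by 2.95 (log2, SE 0.20, limma adjusted p = 5.33e-08), since it rose in microglia and fell in astrocytes. *Notch2* differed by 1.42 (SE 0.26, adjusted p = 0.000475). *Nfia* differed by -1.08 (SE 0.25) and *Nfix* by -0.80 (SE 0.14), with a larger fall in microglia. Scaling by RPM shifted the median of all genes by -0.21 here, moved the share of called genes with a difference above 0 from 49.0% to 32.5%, and left these 5 calls in place.

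*Hes1* fell in both cell types, and its difference of -0.73 (log2, SE 0.26, limma adjusted p = 0.0342) was called in 13 of 23 alternatives, with -0.01 under quantile normalization. The call was lost without WT quiescent microglia replicate 1 (-0.73) or 3 (-0.66), WT LPS microglia replicate 2 (-0.62), WT quiescent astrocytes replicate 2 (-0.74) or 3 (-0.57), or WT activated astrocytes replicate 1 (-0.68) or 2 (-0.73). Of the wider lists, *Dtx2* (2.38), with at least 19.3 RPM in each of the 12 libraries, changed more upward in microglia.

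Across the 12 astrocyte libraries, the genes whose levels followed each of the 10 most closely were found by Pearson r of log2 levels among 12269 genes, as a description over libraries that differ in treatment, genotype and depth. *Sox8* was most like *Smoc1* (r = 0.998), *Lrrn1* (0.998) and *Spon1* (0.997), each over n = 12 libraries. *Hes5* was most like *Ackr3* (0.994), *Hes1* like *Etv4* (0.989), *Notch1* like *Zfp462* (0.989) and *Notch2* like *Sin3a* (0.956). *Nfia* was most like *Qk* (0.994), *Nfib* like *Rcc2* (0.991) and *Nfix* like *Abcd3* (0.989), with *Rcc2* second (0.983). *Sox9* was most like *Ift122* (0.973) and *Sox2* like *Ctnna2* (0.938), the lowest best match of the 10.

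The genes lie on 7 chromosomes of the mouse genome (GRCm38, GENCODE M21), with *Nfia*, *Nfib* and *Hes5* on chromosome 4 and *Sox2* and *Notch2* on chromosome 3. *Hes5* is the shortest, with 1363 bases of exons within 1449 bases, and *Nfib* spans 415578 bases. Among genes in the tables, *Sox2* lies inside the noncoding *Sox2ot* on the same strand, which reached at most 47.1 RPM. *Sox8* overlaps the antisense *2810468N07Rik*, *Nfia* overlaps *E130114P18Rik* and *Nfix* overlaps *Lyl1*, each on the opposite strand, which libraries with strand information can separate.

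The promoters of the Notch target *Hes5* and of *Sox8*, the genes of the set that fell most in activated astrocytes, and of the Notch target *Nrarp*, which fell as well, are shown. They come from RefSeq (GRCm38.p6), which held promoters for 7 of the 10 genes and not for *Sox9*, *Nfib* and *Hes1*, and each runs from 250 bases before to 50 after the start of the gene, 5′ to 3′ on the gene's strand. Both strands were searched for the RBPJ core TGGGAA, the N-box CACNAG that HES proteins bind, the SOX core ACAATG and the nuclear factor I core TTGGCA, and matches are in capitals. Of 32851 promoters of this length, 25.6% hold the RBPJ core, 42.5% the N-box, 12.6% the SOX core and 14.1% the nuclear factor I core. *Hes5* (chr4:154960673-154960972, plus strand) has 2 RBPJ cores, starting at bases 25 and 169, and 2 SOX cores, starting at bases 40 and 79. *Sox8* (chr17:25570637-25570936, minus strand) has 1 nuclear factor I core at base 181, and *Nrarp* (chr2:25180508-25180807, plus strand) has 2 N-boxes at bases 72 and 172. A match is a run of letters in this window and not a measured binding site.
*Hes5*: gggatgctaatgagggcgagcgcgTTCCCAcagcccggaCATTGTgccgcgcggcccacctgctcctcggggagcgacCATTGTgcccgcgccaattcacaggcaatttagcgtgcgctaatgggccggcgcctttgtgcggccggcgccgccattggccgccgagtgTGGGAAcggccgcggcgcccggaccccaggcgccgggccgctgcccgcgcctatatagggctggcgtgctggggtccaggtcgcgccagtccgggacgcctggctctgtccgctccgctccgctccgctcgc
*Sox8*: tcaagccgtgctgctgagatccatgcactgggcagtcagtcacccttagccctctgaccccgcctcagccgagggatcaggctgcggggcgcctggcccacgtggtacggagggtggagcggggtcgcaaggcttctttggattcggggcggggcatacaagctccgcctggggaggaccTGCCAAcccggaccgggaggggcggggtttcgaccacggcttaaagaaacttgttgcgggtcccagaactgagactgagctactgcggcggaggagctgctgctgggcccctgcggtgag
*Nrarp*: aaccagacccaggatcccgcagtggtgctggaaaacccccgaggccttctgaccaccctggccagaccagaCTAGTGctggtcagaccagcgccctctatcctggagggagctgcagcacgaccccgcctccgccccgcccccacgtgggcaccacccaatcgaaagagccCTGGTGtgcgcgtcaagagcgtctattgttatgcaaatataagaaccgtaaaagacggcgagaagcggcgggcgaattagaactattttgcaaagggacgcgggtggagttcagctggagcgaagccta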

How the data were processed

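The signal values are normalized counts that the authors deposited in tables, 1 per comparison, with columns for each library. According to the descriptions deposited with the samples, reads were aligned with STAR 2.7.3a to mm10, counted with RSEM and normalized with DESeq2. The authors' columns of fold change, standard error, statistic, p, adjusted p and mean were not used. Dividing each library's values by a factor gave back whole reads for 100% of values (tolerance 0.01), and levels were computed from these reads. 21 of 24 libraries were used, and the 3 quiescent *SOD1* G93A microglia libraries were not analysed here. Of the 6 tables, the sixth was used only to check reads.

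Comparisons were fitted with limma 3.58.1 (R 4.3.3) with an intensity trend on log2 of the value plus 1, for genes with a mean of 10 or more, and adjusted p-values are Benjamini-Hochberg over all genes tested. The *SOD1* G93A cytokine response, the comparison of cell types and the 2 interactions were fitted jointly on recovered reads with median-ratio size factors. The procedure was tested on simulated data. The 10 genes and the gene lists were chosen with earlier results known. Named genes are the 10, up to 4 that rose and 4 that fell most in each list and comparison, and a fixed set of pathway and marker genes. The authors' gene annotation is not given in the sources used here, and exon lengths and positions are from GENCODE M21 (GRCm38), which matched 23376 of 24411 symbols.

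Alternatives were other pseudocounts, no filter, a filter in every library, quantile normalization, TMM, DESeq2 1.42.0, edgeR 4.0.16, limma without a trend, the study's limits, a replicate block and leaving out each library. Scaling by RPM, depth as a term of the fit, and leaving out the 2 LPS libraries that stand apart were chosen after seeing the data.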

Additional observations from a re-analysis of the deposited data

Results flagged for a closer look

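The response of WT microglia to LPS minus that of WT astrocytes to cytokines was tested as an interaction with limma, and the log2 differences that passed are listed here. The stimuli differ between the cell types. The difference was 2.95 for *Notch1*, 1.42 for *Notch2*, -1.08 for *Nfia* and -0.796 for *Nfix*. It was -0.73 for *Hes1*, which was called in 13 of 23 alternatives and had -0.01 under quantile normalization. The fit also gave 2.47 for *Sox8*, 0.719 for *Nfib* and 2.5 for *Hes5*. *Hes5* had 0 or 1 reads in each WT microglia library, and *Sox8* and *Nfib* stood in quiescent microglia at 0.752% and 1.33% of the astrocyte level, under the 1.89% of the median astrocyte marker. For these 3 genes a response of microglia cannot be read, so the values restate the falls in astrocytes.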

How the results depend on the processing

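Of 4539 values of named genes under an alternative, 4341 kept their call, 148 lost it, 50 gained it and 0 reversed, while 158 changed sign without being called in either fit. At the limits of the study (adjusted p under 0.001 and over 2-fold), the cytokine response in WT astrocytes had 1424 genes and 3 of the 10, and that in *SOD1* G93A astrocytes 1635 and 3. At these limits the LPS response had 2263 genes, the cell types 5702, the difference between cell types 1871 with 3 of the 10, the genotypes in activated astrocytes 78 with 0 of the 10, and the genotypes in quiescent astrocytes, the genotypes in LPS microglia and the difference between genotypes 0 each. Between genotypes in quiescent astrocytes, the number of genes was 3 with no filter, 55 with DESeq2, 0 with limma without a trend, 0 with the replicate block, 4 scaled by RPM and 2359 with depth as a term, which called 5 of the 10. Leave-one-out fits of quiescent astrocytes gave 1 (without WT quiescent replicate 2) to 6 (without WT quiescent replicate 3). Between genotypes in activated astrocytes, it was 582 with DESeq2, 222 with limma without a trend (0 of the 10) and 157 with depth as a term (0 of the 10). Leave-one-out fits of activated astrocytes gave 391 with 1 of the 10 (without WT activated replicate 1) to 1168 with 3 of the 10 (without *SOD1* G93A activated replicate 1). Between genotypes in LPS microglia, it was 2 with no filter, 8 with DESeq2, 0 with limma without a trend, 2 with the replicate block, 2 with depth as a term and 304 with both LPS libraries that stand apart left out. Leave-one-out fits of LPS microglia gave 0 (without WT LPS replicate 2) to 2 (without WT LPS replicate 1). For the difference of cytokine response between genotypes, it was 19 with no filter, 64 with DESeq2, 15 with limma without a trend, 15 with the replicate block, 21 scaled by RPM and 1080 with depth as a term, which called 2 of the 10. Leave-one-out fits of that difference gave 13 (without WT quiescent replicate 2) to 68 (without WT quiescent replicate 1). Groups share replicate numbers, but libraries with the same number were not alike (r from -0.436 to 0.059), so the libraries were not treated as paired. Among quiescent astrocytes, WT replicate 3 was most like *SOD1* G93A replicate 1 (r = 0.522), and these are the deepest libraries of their groups. WT replicate 1 was like *SOD1* G93A replicate 3 (0.351), and these are the shallowest. RPM scaling, depth as a term and leaving out both LPS libraries were chosen after seeing the data.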
